A study of Homo sapiens with 32 samples.

Results

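The 9 nonsense-mediated decay factors UPF1, UPF2, UPF3A, UPF3B, SMG1, SMG5, SMG6, SMG8 and SMG9 were taken by gene symbol from a table of 35238 genes in 32 RNA-seq libraries. All 9 were found, and all 9 passed the filter on low values that left 17011 genes for testing. The libraries came from 4 human endometrial cancer cell lines, Ishikawa (CTNNB1-wildtype), Ishikawa-S33Y, SNGM and HEC265 (all 3 CTNNB1-mutated), where CTNNB1 encodes beta-catenin. Each line was exposed for 24 h to vehicle (0.1% DMSO), to paclitaxel, a microtubule stabiliser, to SM08502, an inhibitor of the CDC-like kinases (CLK) that phosphorylate SR splicing factors, or to both drugs, with 2 libraries per line and treatment from duplicate platings. Doses were set per line at its half-maximal inhibitory concentration for viability. Paclitaxel was given at 11 nM in Ishikawa, 6 nM in Ishikawa-S33Y, 11.7 nM in SNGM and 5.6 nM in HEC265, and SM08502 at 80, 85, 350.7 and 149 nM in the same order. Because dose, mutation and line change together, an effect of the dose, of CTNNB1 and of the line cannot be told apart.

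Nonsense-mediated decay removes mRNAs on which translation ends too early, for example upstream of an exon junction complex, the protein mark that splicing leaves on mRNA. UPF1 is the RNA helicase at its centre, and UPF2 with UPF3A or UPF3B links UPF1 to the exon junction complex. SMG1 is the kinase that phosphorylates UPF1, SMG8 and SMG9 are its partner proteins, SMG6 is the endonuclease that cuts the target, and SMG5 helps to recruit decay and dephosphorylation enzymes. Several of these transcripts, UPF1, UPF2, UPF3B, SMG1, SMG5 and SMG6 among the 9, have been described as targets of the pathway themselves, so that their mRNA can rise when the pathway slows. CLK inhibitors change splicing and can produce mRNAs with early stop codons.

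Depth was 13.03 to 34.13 M recovered reads (M, 1000000 reads) in 30 libraries. The other 2 libraries were shallow, both combination replicate 2, with 2.991 M reads in Ishikawa-S33Y and 1.607 M in SNGM. UPF3B, the member with the fewest reads, had 115 to 610 reads in the 30 deeper libraries. In the shallow pair it had 90 in Ishikawa-S33Y and 9 in SNGM. Epithelial and endometrial markers summed to 957 to 3540 CPM (reads of a gene per 1000000 assigned reads) in all 4 lines, although the estrogen receptor gene ESR1 lay between 0 and 0.315 CPM in HEC265. Fibroblast markers summed to 714 to 1160 CPM in Ishikawa-S33Y against at most 194 CPM in the other lines; nearly all of it was COL1A1, at 707 to 1160 CPM. Of the other 5 fibroblast markers, only COL3A1 was also highest in Ishikawa-S33Y, at 3.3 to 4.69 CPM against at most 2.21 CPM in the other lines. COL1A2 lay at 0.722 to 2.67 CPM in Ishikawa-S33Y and was highest in SNGM, at 2.74 to 4.98 CPM. DCN lay at 0.334 to 1.03 CPM in Ishikawa-S33Y and was highest in SNGM as well, at 1.17 to 3.73 CPM. PDGFRB and LUM stayed at or below 0.148 CPM in Ishikawa-S33Y. They reached 0.89 CPM in SNGM and 0.308 CPM in Ishikawa, respectively. The part of those transcripts in the results was not tested.

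Among the 9, the paired adaptor genes UPF3A and UPF3B had the largest responses to SM08502 in Ishikawa-S33Y. In the other lines they did not lead as a pair. SMG1 changed most in Ishikawa (0.45 on the log2 scale) and SMG5 in SNGM (0.24). In HEC265 UPF3B changed most (0.72), but UPF3A (0.31) lay below SMG8 (0.52). Over the group means the pair had the most similar patterns (r = 0.93). The 250 bases before their annotated starts are therefore shown (RefSeq, GRCh38.p14). The UPF3A stretch lies at chr13:114281351-114281600 on the plus strand, and the UPF3B stretch at chrX:119852964-119853213 on the minus strand. Both are written 5′ to 3′ on the strand of the gene, with capitals marking matches to the ETS core (CGGAAG) or the CCAAT box (CCAAT), each searched on both strands.
UPF3A: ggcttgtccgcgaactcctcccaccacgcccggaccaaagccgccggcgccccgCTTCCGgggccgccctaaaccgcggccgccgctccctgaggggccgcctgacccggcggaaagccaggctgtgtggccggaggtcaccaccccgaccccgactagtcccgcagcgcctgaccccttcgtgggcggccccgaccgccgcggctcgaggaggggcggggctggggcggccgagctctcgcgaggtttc
UPF3B: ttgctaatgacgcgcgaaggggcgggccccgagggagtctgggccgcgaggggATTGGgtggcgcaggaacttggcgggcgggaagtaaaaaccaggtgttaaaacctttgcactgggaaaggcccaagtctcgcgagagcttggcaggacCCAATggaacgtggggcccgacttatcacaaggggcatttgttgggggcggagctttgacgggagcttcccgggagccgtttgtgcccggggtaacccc
The capitals in UPF3A are an ETS core that begins 196 bases before the start, and those in UPF3B are CCAAT boxes that begin 197 and 99 bases before it. The pair thus shared none of the 4 motifs searched. Of 27305 promoter windows of this length, 16.7% held an ETS core and 33% a CCAAT box, against 2 and 4 of the 8 members with a window. The cyclic AMP response element (TGACGTCA, 1.75% of windows) and the TATA box (TATAAA, 11.2%) had no match in those 8 windows, and none of the motifs overlaps another in these matches. GC content was 76.8% in the UPF3A window and 62.8% in that of UPF3B, against a median of 57.6% over all windows. The genes themselves lie at chr13:114281601-114305817 (UPF3A) and chrX:119805311-119852963 (UPF3B) of the same build, and the other 2 members called with SM08502 at chr16:18804860-18926408 (SMG1, minus strand) and chr17:59210035-59215230 (SMG8). SMG8 was without a window. A match is a description of letters only.

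The basal level of each factor was compared between lines on vehicle. Levels are CPM, which is not divided by transcript length, so they are read between lines for a gene and not between genes. They are 1 value per gene, so isoforms with and without an early stop codon cannot be told apart. Differences are on the log2(CPM + 1) scale, tested with limma over all 17011 genes and two-sided, with Benjamini-Hochberg adjustment and a call at an adjusted p under 0.05. In bulk RNA, fewer cells of a type and less RNA per cell cannot be told apart. As each pair of platings comes from 1 line, p-values measure only the spread between platings.

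SMG1, the UPF1 kinase, was highest in SNGM. It stood at 402 and 438 CPM in the SNGM vehicle libraries, 226 and 211 in HEC265, 167 and 155 in Ishikawa-S33Y, and 144 and 138 in Ishikawa. SNGM exceeded HEC265 (adjusted p = 8.24e-07, limma) and HEC265 exceeded Ishikawa-S33Y (adjusted p = 0.00328), whereas the difference between Ishikawa-S33Y and Ishikawa missed the threshold (0.19 on the log2 scale, adjusted p = 0.204). With quantile normalization the excess of HEC265 over Ishikawa-S33Y went from 0.44 to 0.18 and was not called (adjusted p = 0.18). SMG1 has near-identical pseudogene copies, and 39.9 to 65.1% of the CPM of SMG1 and SMG1P1 to SMG1P7 together was assigned to SMG1 itself, so its level is uncertain. With the family summed, the excess of SNGM over Ishikawa was 1.22 on the log2 scale instead of 1.57, and that of HEC265 over Ishikawa fell from 0.63 to 0.17 and was no longer called (adjusted p = 0.16, limma). The summed family was called lower in Ishikawa-S33Y than in Ishikawa, the opposite direction to SMG1 counted by itself.

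SMG8, a subunit of the SMG1 complex, had the opposite order. Its vehicle libraries read 51.9 and 45.6 CPM in Ishikawa and 45.0 and 45.8 in Ishikawa-S33Y, against 24.4 and 25.1 in HEC265 and 27.5 and 20.5 in SNGM. The lines thus fell into a high pair and a low pair that did not overlap. The step between the pairs was called (Ishikawa-S33Y over HEC265, adjusted p = 3.8e-05, limma), and within each pair the lines did not differ beyond their spread (adjusted p = 0.625 and 0.783). SMG9, the other subunit, was lowest in SNGM at 21.2 and 23.0 CPM, below HEC265 at 33.9 and 34.4 CPM (adjusted p = 0.00681, limma), and the upper 3 lines did not differ beyond their spread.

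The exon junction adaptor UPF3A was lowest in Ishikawa-S33Y. Its 12.0 and 11.2 CPM there lay below 13.7 and 18.6 in Ishikawa, 21.7 and 23.3 in HEC265, and 22.9 and 28.7 in SNGM. The steps from Ishikawa-S33Y to Ishikawa (adjusted p = 0.0387, limma) and from Ishikawa to HEC265 (adjusted p = 0.0191) were called, and SNGM and HEC265 did not differ beyond their spread. The first of these steps was kept in 8 of 13 alternative settings (-0.66 to -0.22 on the log2 scale) and lost without Ishikawa vehicle replicate 2 or either Ishikawa-S33Y library, without the filter on low values and with a replicate block. The second was kept in 10 of 13 and lost without Ishikawa vehicle replicate 1 or HEC265 vehicle replicate 2. It was also lost with a score of genes with long transcripts against ribosomal protein genes as a covariate (0.11 instead of 0.47, adjusted p = 0.744). UPF3B spanned a narrower range, from 6.13 and 7.79 CPM in SNGM to 12.6 and 13.1 in HEC265. No neighbouring lines in its order differed beyond their spread, but lines farther apart did. HEC265 exceeded SNGM (0.81 on the log2 scale, adjusted p = 0.00483, limma), a call kept in 12 of 13 settings. SNGM lay below Ishikawa-S33Y (-0.55, adjusted p = 0.0428, limma), a call kept in 6 of 13. UPF2, the bridge between UPF1 and the adaptors, was highest in Ishikawa-S33Y, at 54.0 and 52.8 CPM, and its next line was Ishikawa at 34.3 and 44.6 CPM (0.44 on the log2 scale, adjusted p = 0.0184, limma). This call was kept in 7 of 13 settings. It was lost without Ishikawa vehicle replicate 1 or either Ishikawa-S33Y library, with the 2 lines fitted alone, with a replicate block and with the same score, which took it to 0.01 (adjusted p = 0.953).

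SMG5 and SMG6, which act on phosphorylated UPF1, were both highest in HEC265. SMG5 read 133 and 128 CPM there and 52.7 to 74.5 CPM in the vehicle libraries of the other lines (HEC265 over Ishikawa-S33Y, adjusted p = 0.00047, limma). SMG6 read 51.8 and 46.7 CPM in HEC265, 25.8 and 34.2 in SNGM, 29.9 and 29.4 in Ishikawa-S33Y, and 15.3 and 20.9 in Ishikawa. SMG6 overlaps HIC1 and SRR, and SMG5 overlaps TMEM79; whether strand was used in counting is not given in the sources used here, so reads of overlapping genes cannot be told apart.

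UPF1 was lower in Ishikawa than in the other lines. Its vehicle libraries read 49.1 and 53.5 CPM in Ishikawa, against 94.1 and 93.7 in HEC265, 91.4 and 96.4 in SNGM, and 87.5 and 92.1 in Ishikawa-S33Y. The difference between Ishikawa and Ishikawa-S33Y was called (0.80 on the log2 scale, SE 0.26, adjusted p = 0.0146, limma) and kept in 7 of 13 settings, lost among others without Ishikawa vehicle replicate 1 or Ishikawa-S33Y vehicle replicate 2. The upper 3 lines did not differ beyond their spread.

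In all, 4 of 9 members were called between Ishikawa-S33Y and Ishikawa, where 48.3% of the genes tested were called. The count was 6 of 9 for SNGM against Ishikawa (66.8% of genes), for SNGM against Ishikawa-S33Y (60.8%), for HEC265 against Ishikawa (63.3%) and for HEC265 against Ishikawa-S33Y (58% of genes), and 5 of 9 for HEC265 against SNGM (54.9%). Those shares lie close to the background.

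The Ishikawa libraries also differed in how genes with long transcripts stood against ribosomal protein genes. A length score was computed per library by subtracting the mean log2(CPM + 1) of 77 genes for ribosomal proteins, which are short, from the mean of 51 genes with long transcripts. As ribosomal protein genes alone stand for short transcripts, the score cannot tell transcript length apart from the level of ribosomal protein mRNA. It lay between -3.29 and -1.76 in Ishikawa and between -2.03 and -0.27 in the other lines, and only Ishikawa RNA was put in at 350 ng instead of 500 ng. Within the Ishikawa paclitaxel pair the score moved most with UPF1 and SMG6. Paclitaxel replicate 1, with a score of -1.76, read 76.8 CPM for UPF1 and 30.6 for SMG6. Paclitaxel replicate 2, with a score of -3.29, read 33.1 and 14.8. The other members were lower in replicate 2 as well, from -0.06 on the log2 scale for UPF3A to -0.78 for SMG5. With the score as a covariate, the excess of UPF1 over Ishikawa turned from 0.80 to -0.14 on the log2 scale in Ishikawa-S33Y (adjusted p = 0.443, limma). It turned from 0.86 to -0.87 in SNGM (adjusted p = 0.000404) and from 0.86 to -0.58 in HEC265 (adjusted p = 0.00491), both called lower. That of SMG6 turned from 0.70 to -0.17 in Ishikawa-S33Y (adjusted p = 0.435). In SNGM it turned from 0.70 to -0.90 and was called lower (adjusted p = 0.00164), and in HEC265 it went from 1.41 to 0.07 (adjusted p = 0.783, limma). The slope of the score comes from replicates within groups, whereas the vehicle means of the score lay as far apart as -2.72 in Ishikawa and -0.48 in SNGM. Other calls ended under the same covariate. The excess of HEC265 over Ishikawa went from 1.27 to 0.37 for SMG5 (adjusted p = 0.104), from 0.63 to 0.18 for SMG1 (adjusted p = 0.308) and from 0.47 to 0.11 for UPF3A. That of SNGM over Ishikawa for UPF3A went from 0.65 to 0.22 (adjusted p = 0.541). That of HEC265 over Ishikawa-S33Y for SMG6 went from 0.71 to 0.24 (adjusted p = 0.115). The input, the score and the line cannot be told apart.

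**Figure D1:**
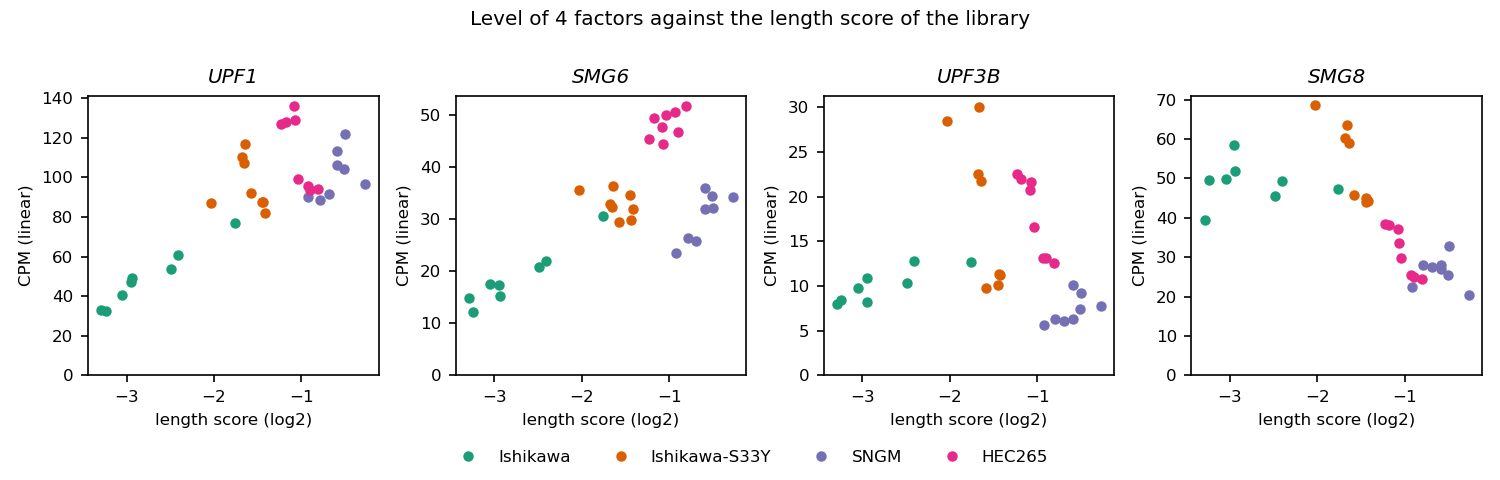
CPM (linear, vertical axis) of UPF1, SMG6, UPF3B and SMG8 in the 32 libraries against the length score of the library (log2, horizontal axis), coloured by line. The 8 Ishikawa libraries reach from a score of -3.29 to -1.76, and UPF1 there runs from 32.4 to 76.8 CPM.

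With SM08502, the called members were UPF3A, UPF3B, SMG1 and SMG8, and every call was an increase. Ishikawa had 1 of 9 members called (SMG1), Ishikawa-S33Y 3 (UPF3A, UPF3B and SMG1), SNGM 0 and HEC265 3 (UPF3B, SMG1 and SMG8). Among all genes tested the calls made up 15.2%, 29.1%, 7.86% and 14.7% in the order Ishikawa, Ishikawa-S33Y, SNGM, HEC265. Called increases alone made up 6.5%, 18.5%, 3.8% and 9.27% of genes in the same order. In SNGM limma gave 0 members at an unadjusted p under 0.05, and voom on recovered reads also called 0. The median change of the members was 0.03, 0.33, 0.18 and 0.31 on the log2 scale in that order, and that of all genes tested 0, 0.11, 0 and 0.07. Of the 6 members described as targets of the pathway, 1, 2, 0 and 2 were called, and of the other 3 members 0, 1, 0 and 1.

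UPF3B had the largest single change. In Ishikawa-S33Y it went from 11.4 and 9.77 CPM on vehicle to 21.8 and 22.5 on SM08502, with a mean of 10.6 ± 1.18 (SD, n = 2) against 22.1 ± 0.46. Every SM08502 library lay above every vehicle library. The difference was 1.00 on the log2 scale (SE 0.23, adjusted p = 0.00232, limma) and was called in all 13 alternative settings. In HEC265 UPF3B went from 12.6 and 13.1 CPM to 21.6 and 22.0 (0.72 on the log2 scale, SE 0.23, adjusted p = 0.037, limma), a call kept in 6 of 13 settings and lost without any of the 4 libraries (adjusted p up to 0.177). The change was 0.16 in Ishikawa and 0.19 in SNGM, where the SM08502 libraries overlapped those on vehicle (adjusted p = 0.706 and 0.744, limma).

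UPF3A, the paralog of UPF3B, rose in Ishikawa-S33Y from 12.0 and 11.2 CPM to 21.9 and 23.5. The difference was 0.91 on the log2 scale (SE 0.17, adjusted p = 0.000367, limma) and was called in all 13 settings. This was the line with the lowest vehicle level, and the treated level reached that of HEC265 on vehicle, at 21.7 and 23.3 CPM. The change was 0.33 in Ishikawa (adjusted p = 0.199), 0.31 in HEC265 (adjusted p = 0.25) and -0.10 in SNGM (adjusted p = 0.838, limma). UPF3A was the only member whose SM08502 change differed among the 4 lines by the interaction test (adjusted p = 0.0345, limma, over all genes). Of all genes, 12.4% passed that test. For UPF3A its p ranged from 0.00884 to 0.127 over 24 alternatives and passed in 11. It missed without any of the 4 vehicle and SM08502 libraries of Ishikawa-S33Y, any of those 4 of HEC265, SNGM vehicle replicate 2 or either SM08502 library of SNGM. For the other 8 members the interaction gave adjusted p between 0.158 and 0.95, and a change called in some lines only is not shown to differ between them.

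SMG1 was the member called in the most lines. It went from 144 and 138 CPM on vehicle to 197 and 187 on SM08502 in Ishikawa (0.45 on the log2 scale, SE 0.12, adjusted p = 0.015, limma). In Ishikawa-S33Y it went from 167 and 155 to 240 and 233 CPM (0.56, SE 0.12, adjusted p = 0.00147), and in HEC265 from 226 and 211 to 311 and 292 CPM (0.46, SE 0.12, adjusted p = 0.0113). The treated libraries lay above the vehicle libraries in each of these lines. In SNGM, the line with the highest level, it was 402 and 438 CPM on vehicle and 486 and 463 on SM08502, without overlap and without a call (0.18, 95% interval -0.07 to 0.43, adjusted p = 0.459). The call held in all 13 settings in Ishikawa-S33Y and in 11 of 13 in HEC265, where it was lost without vehicle replicate 2 or SM08502 replicate 1 (adjusted p up to 0.112). In Ishikawa it was lost when that line was fitted alone and when any of its 4 libraries was left out (adjusted p up to 0.211). Summing SMG1 with its pseudogenes gave 0.46 in Ishikawa, 0.54 in Ishikawa-S33Y, 0.42 in HEC265 and 0.03 in SNGM, with calls in the same 3 lines.

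SMG8 rose in HEC265 from 24.4 and 25.1 CPM to 33.7 and 38.3 (0.52 on the log2 scale, SE 0.15, adjusted p = 0.0201, limma), a call kept in 9 of 13 settings and lost without either vehicle library or SM08502 replicate 2 (adjusted p up to 0.192). In Ishikawa-S33Y it was 45.0 and 45.8 CPM on vehicle and 59.0 and 60.2 on SM08502, a difference of 0.39 that narrowly missed the threshold (adjusted p = 0.0551). In Ishikawa the difference was 0.03 with a 95% interval from -0.28 to 0.33.

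UPF1, UPF2, SMG5, SMG6 and SMG9 were not called with SM08502 in any line. UPF1 stood at 94.1 and 93.7 CPM on vehicle and 129 and 128 on SM08502 in HEC265, without overlap (0.45 on the log2 scale, 95% interval -0.09 to 0.99, adjusted p = 0.295, limma). The 2 Ishikawa SM08502 libraries read 60.7 and 32.4 CPM for UPF1, with length scores of -2.41 and -3.24, and this spread enters the error that all lines share. When HEC265 was fitted alone 5 members were called, UPF1 and UPF3A in addition to the 3 above, and 7 of 9 were called when Ishikawa-S33Y was fitted alone. Those fits also called more of all genes, 41.3% in HEC265 and 40.3% in Ishikawa-S33Y, against 0.282% in Ishikawa and 0.735% in SNGM, where 0 members were called alone. UPF2 differed by 0.11 to 0.25 over the 4 lines, with its highest level in Ishikawa-S33Y at 63.6 and 61.5 CPM on SM08502 against 54.0 and 52.8 on vehicle (0.22, adjusted p = 0.276). SMG9 differed by -0.27 to 0.29; in Ishikawa-S33Y it read 47.4 and 47.0 CPM on SM08502 and 40.6 and 36.4 on vehicle, whereas its SM08502 libraries in Ishikawa read 37.4 and 24.3 CPM, only the latter below both vehicle libraries. Without SM08502 replicate 1, which read 37.4 CPM, the SMG9 change in Ishikawa was -0.57. That value rests on SM08502 replicate 2 alone, whose length score was -3.24 against -2.94 and -2.49 in the vehicle libraries. SMG6 differed by -0.11 to 0.22 and was nearly level in HEC265, at 44.4 and 49.4 CPM against 51.8 and 46.7 on vehicle (-0.07, 95% interval -0.59 to 0.45). SMG5 was the single member with a lower mean in Ishikawa-S33Y, at 74.5 and 68.3 CPM on vehicle and 61.8 and 55.2 on SM08502 (-0.28, 95% interval -0.68 to 0.11, adjusted p = 0.282). With voom on recovered reads this difference was -0.43 and was called (adjusted p = 0.0296). In HEC265, where SMG5 was highest, it read 133 and 128 CPM on vehicle and 135 and 133 on SM08502.

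**Figure D2:**
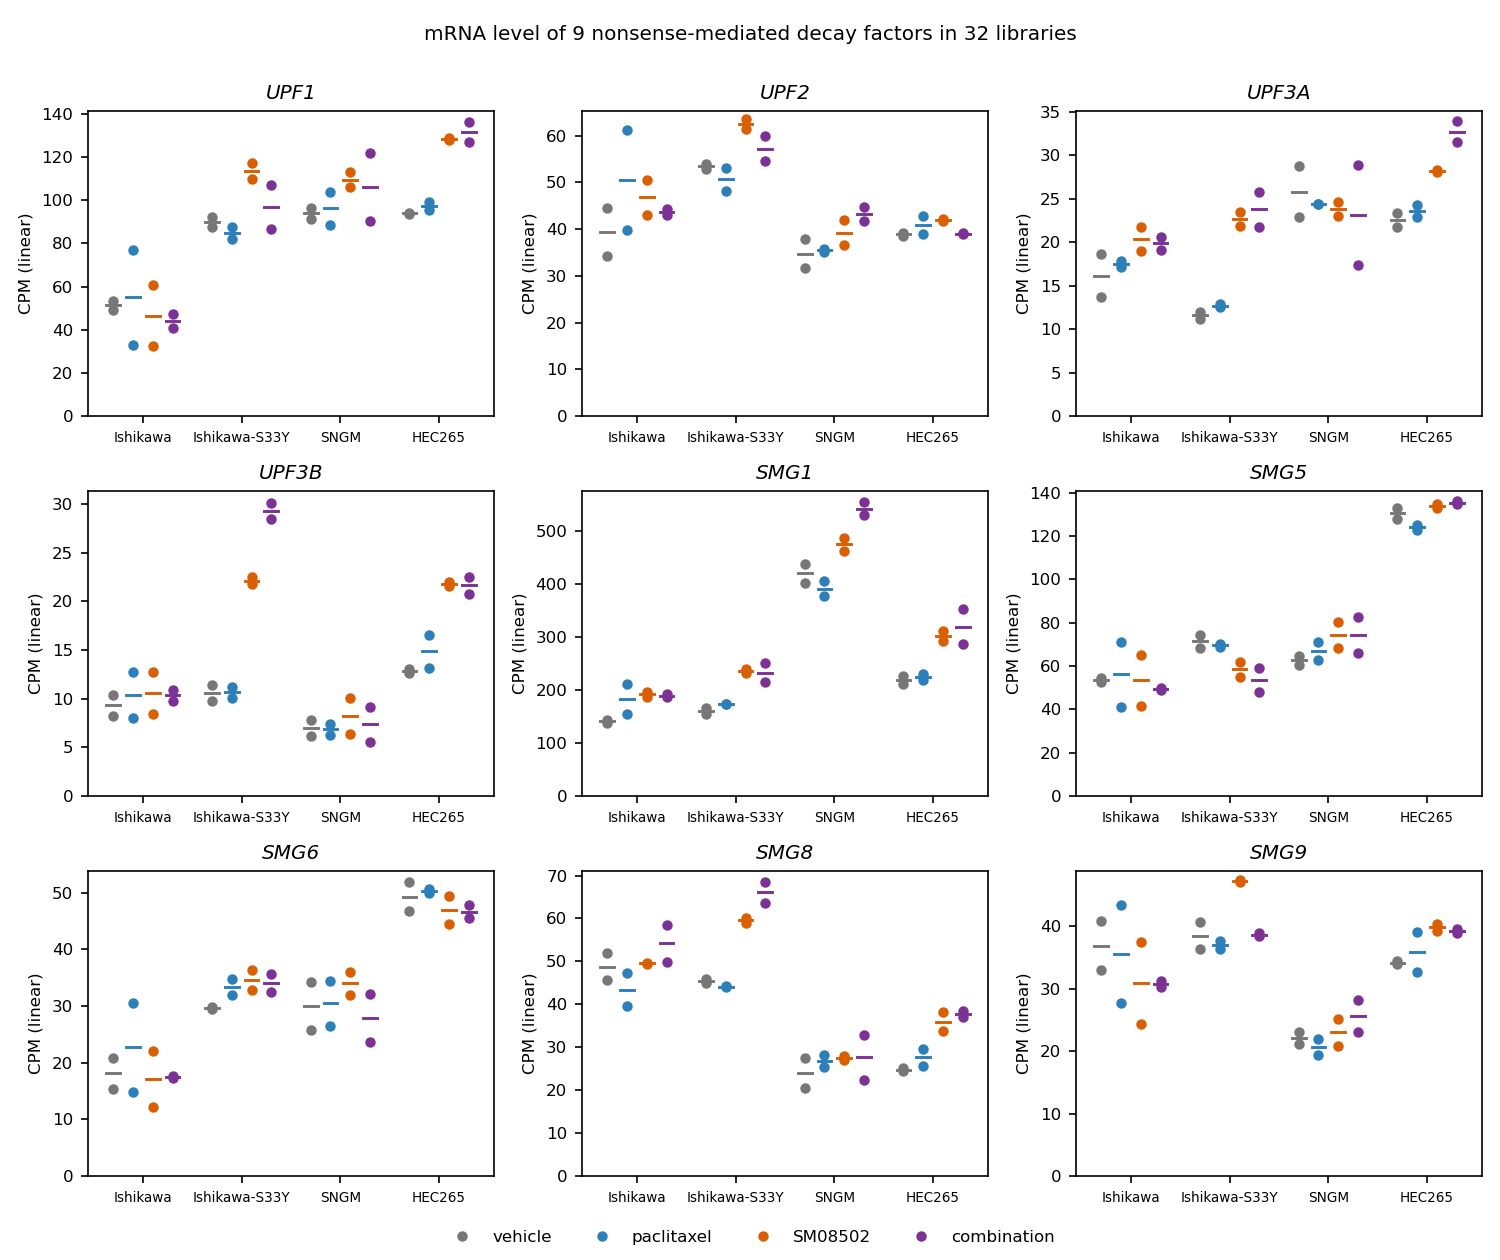
CPM (linear, vertical axis) of each of the 9 factors in every library, by line and treatment; points are libraries and bars the mean of 2. UPF3B in Ishikawa-S33Y stands at 9.77 to 11.4 CPM on vehicle or at 10.1 to 11.2 with paclitaxel and at 21.8 to 30.1 CPM with SM08502 or the combination.

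The length score also moved slightly with SM08502, with group means of -1.51 on vehicle and -1.66 on SM08502 in Ishikawa-S33Y and of -0.85 and -1.12 in HEC265. With the score as a covariate, SM08502 calls came to 8 members in Ishikawa-S33Y, 5 in HEC265, 2 in Ishikawa and 1 in SNGM, all increases. The covariate raised the share of all genes called to 39%, 23.9%, 24.5% and 16.8% in the same order, so the counts in Ishikawa and SNGM lie near or below the background. Without that covariate, vehicle and SM08502 libraries did not overlap for 9 of 9 members in Ishikawa-S33Y (77.9% of all genes tested), 8 in HEC265 (70.6%), 3 in SNGM (53.8%) and 2 in Ishikawa (51.5%).

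Paclitaxel called none of the 9 members in any line. Of 17011 genes, limma called 3 in SNGM (0.0176%), 2 in Ishikawa (0.0118%), 1 in HEC265 (0.00588%) and 0 in Ishikawa-S33Y. At an unadjusted p under 0.05 there were 2 members in Ishikawa and 0 in each of the other lines, and voom on recovered reads called 0 in each. The 2 in Ishikawa were SMG1, at 211 and 155 CPM against 144 and 138 on vehicle (0.36 on the log2 scale, adjusted p = 0.439), and UPF2, at 61.2 and 39.7 against 34.3 and 44.6 CPM (0.32, adjusted p = 0.654); both passed when the paclitaxel replicate with the score of -3.29 was left out. Over all 9 members the paclitaxel changes reached from -0.17 to 0.36 in Ishikawa, from -0.08 to 0.17 in Ishikawa-S33Y, from -0.07 to 0.19 in HEC265 and from -0.10 to 0.17 in SNGM. Their 95% intervals allowed changes between -0.62 and 0.76 over the 4 lines.

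The combination was set against the same vehicle libraries as SM08502 alone, so the 2 comparisons share controls and their values are given side by side. Against vehicle, the combination called 4 of 9 members in Ishikawa-S33Y (42% of all genes), 4 in HEC265 (19.5%), 1 in SNGM (18.4%) and 1 in Ishikawa (22.8% of genes), all increases. UPF3B in Ishikawa-S33Y read 28.5 and 30.1 CPM with the combination, a difference of 1.39 on the log2 scale (SE 0.23, adjusted p = 5.61e-05, limma) beside 1.00 with SM08502. UPF3A there read 25.8 and 21.7 CPM (0.97 beside 0.91), SMG1 215 and 250 CPM (0.52 beside 0.56) and SMG8 68.6 and 63.5 CPM (0.53 beside 0.39). These 4 calls held in all 14 alternative settings, which include leaving out the shallow library.

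In HEC265 the combination calls were SMG1 (0.54 on the log2 scale, beside 0.46 with SM08502), UPF3B (0.71 beside 0.72), SMG8 (0.59 beside 0.52) and UPF3A, at 33.9 and 31.5 CPM (0.52 beside 0.31). Of these, UPF3A and UPF3B lost the call without any of the 4 libraries (adjusted p up to 0.179) and without the filter, UPF3A also with median re-centring and quantile normalization, SMG8 without vehicle replicate 1 or combination replicate 1 (adjusted p up to 0.0563), and SMG1 without combination replicate 2 (adjusted p = 0.0904). SMG1 alone was called in Ishikawa (0.43 beside 0.45), a call lost without vehicle replicate 2 or either combination library (adjusted p up to 0.0955) and with the line fitted alone (adjusted p = 0.176). It was also the call in SNGM (0.37 beside 0.18). The SNGM call was lost without any of the 4 libraries, among them the shallow combination replicate 2 (adjusted p up to 0.191). It was also lost with voom, which took the change from 0.37 to 0.19 (adjusted p = 0.222), with the line alone, without both shallow libraries and without the filter. The mean of 542 CPM there rests on 554 CPM in the deeper library and 530 in the shallow one.

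The direct comparison of the combination with SM08502 alone called none of the 9 members in any line, with 0 at an unadjusted p under 0.05 in limma and 0 calls with voom; of all genes 0.253% were called in SNGM, 0.129% in Ishikawa-S33Y, 0.00588% in HEC265 and 0 in Ishikawa. The largest difference was that of UPF3B in Ishikawa-S33Y, where 28.5 and 30.1 CPM lay above 21.8 and 22.5 (0.39 on the log2 scale, 95% interval -0.09 to 0.86, adjusted p = 0.525).

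**Figure D3:**
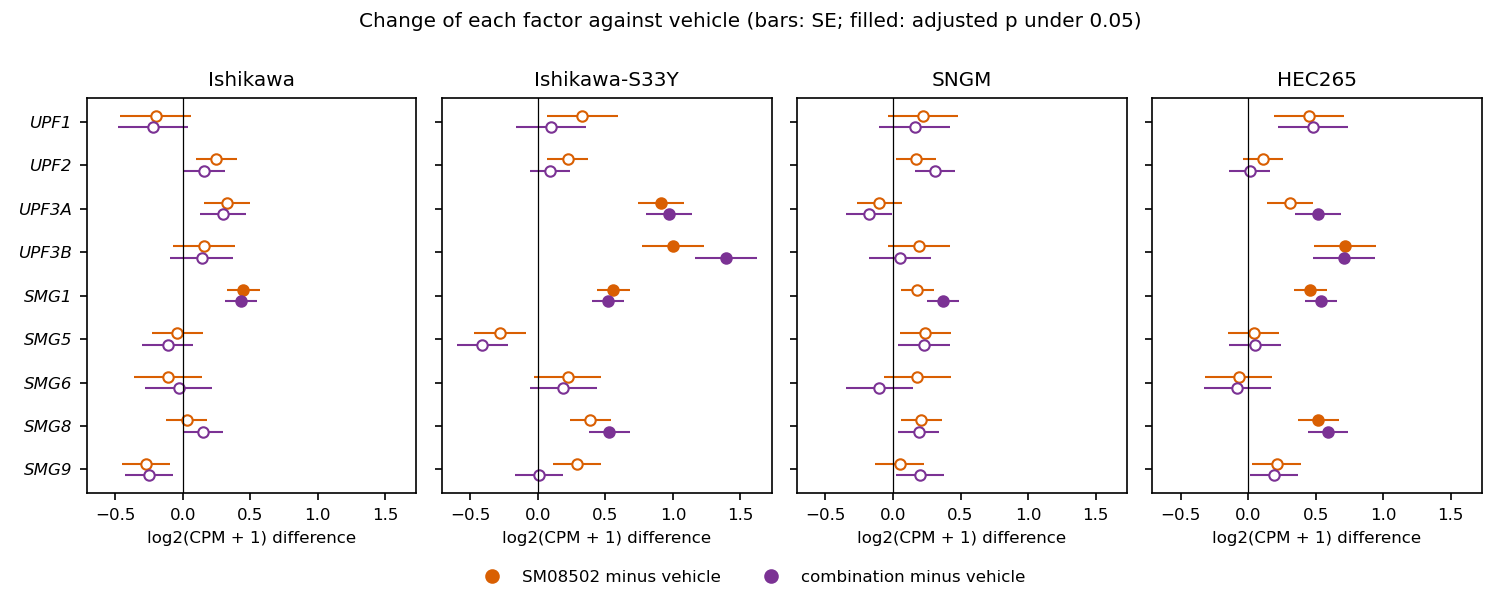
Difference of each factor from vehicle on the log2(CPM + 1) scale (horizontal axis) for SM08502 and the combination in the 4 lines; bars are standard errors and filled points have an adjusted p under 0.05. UPF3B in Ishikawa-S33Y lies farthest to the right, at 1.00 with SM08502 and 1.39 with the combination, and SMG1 is filled in every line with the combination.

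How the members moved with each other was described over the 16 group means of log2(CPM + 1), each centred on the mean of its line; the points share vehicle groups, lines and depth. UPF3A and UPF3B were the most similar pair (r = 0.93), followed by UPF3B and SMG8 (r = 0.89), UPF1 and SMG9 (r = 0.83) and UPF3A and SMG8 (r = 0.83). SMG5 ran against UPF3A (r = -0.71) and UPF3B (r = -0.61). Among 10423 genes with a mean of at least 3 on that scale, the 2 nearest to UPF3A were ZNF823 (r = 0.98) and ZNF561 (r = 0.97), and to UPF3B ZNF600 (r = 0.99) and ZNF121 (r = 0.98). The nearest to SMG1 were PHF20L1 (r = 0.98) and ZNF525 (r = 0.97), to SMG8 NKIRAS2 (r = 0.98), to UPF1 CHD8 (r = 0.96) and SF3B2 (r = 0.95), and to SMG5 PLD2 and ZER1 (both r = 0.95). The nearest to SMG9 were MAN1B1 (r = 0.9) and FAM83G (r = 0.88), to UPF2 CYP3A5 (r = 0.88) and OSBPL5 (r = 0.85), and to SMG6 SLK (r = 0.85) and MON1B (r = 0.83). CHD8 is also a gene of the length score.

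Genes that work beside the 9 factors were read from lists. Of 20 other decay and linked factors, 5 rose and 0 fell with SM08502 in HEC265, 3 rose and 5 fell in Ishikawa-S33Y, 2 rose and 1 fell in Ishikawa, and 1 rose and 1 fell in SNGM. Their median changes were 0.17, 0.14, 0.15 and 0.09 on the log2 scale, beside 0.07, 0.11, 0 and 0 over all genes. Called increases made up 9.27%, 18.5%, 6.5% and 3.8% of all genes in that order, so the counts of increases lie near or below the background except in HEC265. Calls in either direction made up 14.7%, 29.1%, 15.2% and 7.86% of all genes. The falls were most frequent in Ishikawa-S33Y, at 5 of 20 factors. Of 17011 genes there, 4946 were called, and 3146 of these were increases. A share of falls alone was not computed. RUVBL2, an ATPase that associates with SMG1, fell by 0.71 in Ishikawa-S33Y, 0.61 in SNGM and 0.43 in Ishikawa (adjusted p = 0.000116, 0.00171 and 0.0154) and stood at -0.26 in HEC265 (adjusted p = 0.155). DHX34, a helicase that promotes UPF1 phosphorylation by SMG1, rose in Ishikawa-S33Y (0.64) and HEC265 (0.75), and NBAS, linked to decay at the endoplasmic reticulum, rose in Ishikawa (0.64). The deadenylase PARN rose in SNGM (0.44) and fell by 0.31 in Ishikawa-S33Y.

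Exon junction complex genes were called with SM08502 in each of the 4 lines, and every call was an increase. Of 9 tested, 3 rose in HEC265 and 2 in each of the other lines, and 0 fell. The median was 0.24 in HEC265, 0.23 in Ishikawa-S33Y, 0.18 in Ishikawa and 0.16 in SNGM, beside 0.07, 0.11, 0 and 0 over all genes. Called increases made up 9.27% of all genes in HEC265, 18.5% in Ishikawa-S33Y, 6.5% in Ishikawa and 3.8% in SNGM, and the 2 of 9 in Ishikawa-S33Y lie near that background. RBM8A, a core subunit also known as Y14, rose by 0.84 in Ishikawa-S33Y, 0.82 in SNGM, 0.77 in HEC265 and 0.41 in Ishikawa (adjusted p = 7.27e-05, 0.000358, 0.000346 and 0.0392, limma). SAP18, a subunit of the peripheral ASAP complex, rose by 0.82, 0.45, 0.69 and 0.61 in that order (adjusted p = 6.69e-05, 0.0297, 0.000695 and 0.00252). Both rose in SNGM, where 0 of the 9 decay factors were called. Of 7 translation termination and cap binding genes, 2 rose and 1 fell in Ishikawa-S33Y, with the cap binding subunits NCBP2 at 0.50 and NCBP1 at -0.75 (adjusted p = 8.33e-05 and 3.04e-05), and 0 were called in each of the other lines.

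Transcripts described as sensitive to nonsense-mediated decay moved both ways. Of 27 tested, 12 rose and 2 fell in Ishikawa-S33Y (median 0.20), and 7 rose and 3 fell in SNGM (median 0.21). In HEC265 6 rose and 3 fell (median 0.04), and in Ishikawa 4 rose and 4 fell (median -0.01). The 11 others of the list, noncoding hosts of small RNAs, were not found by symbol among the genes used here and were not analysed. Over all genes the share called in either direction was 29.1%, 7.86%, 14.7% and 15.2% in that order. Called increases alone made up 18.5%, 3.8%, 9.27% and 6.5% of all genes. The median of all genes was 0.11, 0, 0.07 and 0, so the list's median lay below it in HEC265 and Ishikawa and above it in the other lines. The kinase genes CLK1 and CLK4, whose products SM08502 inhibits, rose in all 4 lines, CLK1 by 1.81 in HEC265, 1.70 in Ishikawa-S33Y, 1.58 in Ishikawa and 1.04 in SNGM, and CLK4 by 1.66, 1.57, 1.59 and 1.01 in that order. CHAC1, a glutathione-degrading enzyme and target of the ATF4 stress response, was the largest increase of the list in SNGM (1.71, adjusted p = 7.56e-06, limma). SRSF2, an SR splicing factor, fell by 0.66 in SNGM, 0.57 in Ishikawa-S33Y and 0.55 in Ishikawa (adjusted p = 0.00118, 0.00124 and 0.00362), and the RNA-binding protein gene HNRNPDL fell by 0.67 in HEC265 (adjusted p = 0.00015).

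**Figure D4:**
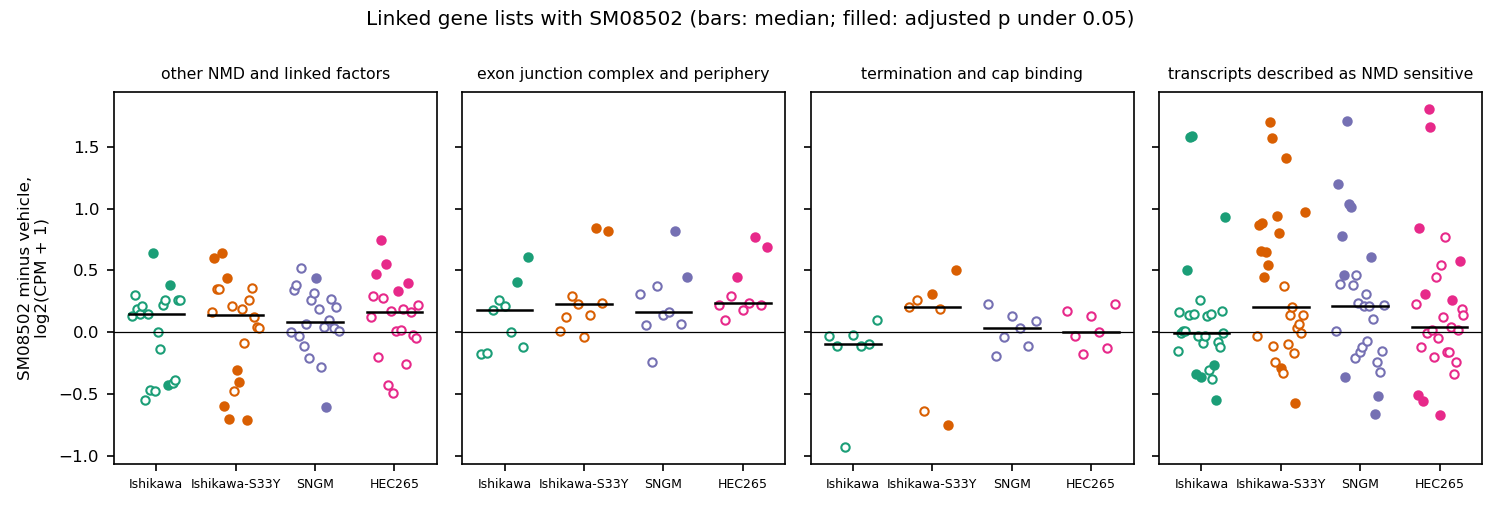
Change with SM08502 on the log2(CPM + 1) scale (vertical axis) of each gene of 4 linked lists in the 4 lines; bars are medians and filled points have an adjusted p under 0.05. The highest filled points of the rightmost panel are CLK1 and CLK4 in Ishikawa and HEC265, CLK1 in Ishikawa-S33Y and CHAC1 in SNGM.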

How the data were processed

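RNA sequencing values of 32 libraries, 2 for each of 16 groups of line and treatment, were used. The authors deposited log10 values, which are log10(CPM + 1): 10 to that power minus 1 summed to 1000000 CPM in each library, and 100% of values came out as whole reads within a tolerance of 0.01. The analysis had been planned for a log CPM of unstated base. Per the submitters' processing notes, GRCh38, bcl2fastq, kallisto and STAR were used; versions, roles and annotation are not given in the sources used here. Per the labels' protocols, ribosomal RNA was depleted before library preparation. 0 columns were unmapped.

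Values were converted to log2(CPM + 1), and genes above 1 CPM in at least 2 libraries (17011) were fitted with limma 3.58.1 in R 4.3.3, with 1 mean per group, a trended prior and 16 residual degrees of freedom. P-values are two-sided and Benjamini-Hochberg adjusted over all genes. The difference of the SM08502 change among lines was an F test in the same fit. The fit was tested on simulated data in which all genes and libraries shared the same dispersion. The replicates here varied unequally between groups, so that run does not show how the fit performs on them. Alternatives were no filter (30872 genes), a pseudocount of 0.1, median re-centring, quantile normalization, limma voom with TMM factors on recovered reads, the compared lines alone, a replicate block, the length score as covariate, and leaving out each library; a lone library was then assumed to vary like the other groups. Leaving out both shallow libraries, crossed block numbers and the sum of SMG1 with its pseudogenes were added after seeing the data. Replicates of all groups differed beyond sampling noise (chi-square per degree of freedom 2.46 to 106).

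The 9 members, the lists and the length score were chosen with earlier results of these data known, and no list is independent evidence. Named besides the members were the 2 genes most like each by Pearson r, list genes called alike in all 4 lines, and the called list gene with the largest change each way per line; some genes of this rule are not reported here. All 9 members matched RefSeq; promoter windows came from its GRCh38.p14 table.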

Additional observations from a re-analysis of the deposited data

Results flagged for a closer look

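The change of UPF3A with SM08502 differed among the 4 lines by the interaction test of limma over all genes (adjusted p = 0.0345). It was 0.91 on the log2 scale in Ishikawa-S33Y, 0.33 in Ishikawa, 0.31 in HEC265 and -0.10 in SNGM. Both SM08502 libraries lay above both vehicle libraries in Ishikawa, Ishikawa-S33Y and HEC265. The p ranged from 0.00884 to 0.127 over 24 alternatives and passed in 11.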

How the results depend on the processing

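Under the alternatives run, 5 of 50 called member differences reversed, all 5 of them UPF1 or SMG6 against Ishikawa with the length score as covariate: UPF1 to -0.14, -0.87 and -0.58 in Ishikawa-S33Y, SNGM and HEC265, SMG6 to -0.17 and -0.90 in Ishikawa-S33Y and SNGM. Of 29 differences not called, 13 changed sign. For SM08502, SMG5 turned to 0.03, 0.02 and 0.02 in Ishikawa (median re-centring, quantile, length score) and to -0.06 and -0.09 in HEC265 (median re-centring, voom), SMG8 to -0.01 in Ishikawa and UPF2 to -0.02 in HEC265 (voom), and SMG6 to 0.12 in HEC265 (length score). The cause was not tested.

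Counts of members called with SM08502 were 0, 7 and 5 in Ishikawa, Ishikawa-S33Y and HEC265 with each line fitted alone, 1 in HEC265 with quantile normalization, and 8, 5, 2 and 1 in Ishikawa-S33Y, HEC265, Ishikawa and SNGM with the length score. For the combination they were 0 in SNGM without the filter, with voom, with the line alone and without both shallow libraries, 5 there with the length score, 0 in Ishikawa with the line alone and 2 in HEC265 without the filter. For Ishikawa-S33Y against Ishikawa they were 2 without the filter, 2 with the length score (both lower) and 1 with the 2 lines alone. The interaction count was 0 without the filter, 2 with quantile normalization and 4 with the length score. Without the filter 30872 genes entered the fit and the adjustment instead of 17011. The causes of these moves were not tested.

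Leaving out 1 library gave, in the order HEC265, SNGM, Ishikawa-S33Y, Ishikawa, 0 to 1, 0 to 0, 3 to 3 and 0 to 1 members for SM08502 (the 1 in Ishikawa was SMG9, called lower without SM08502 replicate 1), 0 to 2 for paclitaxel in Ishikawa and 0 in the other lines, and 1 to 2, 0 to 1, 4 to 4 and 0 to 1 for the combination. The combination against SM08502 gave 0 to 1 in SNGM (UPF3A without the deeper combination library) and 0 elsewhere. Vehicle counts were 0 to 3 for Ishikawa-S33Y against Ishikawa, 4 to 6 and 5 to 6 for SNGM against Ishikawa and Ishikawa-S33Y, 5 to 6, 4 to 5 and 3 to 5 for HEC265 against Ishikawa, Ishikawa-S33Y and SNGM, and 0 to 1 for the interaction. With 1 library left out, SM08502 changes crossed 0 for UPF1 (-0.64 to 0.24), UPF3B (-0.12 to 0.43), SMG5 (-0.35 to 0.28), SMG6 (-0.51 to 0.29), SMG8 (-0.07 to 0.12) and SMG9 (-0.57 to 0.03) in Ishikawa and for UPF3A (-0.26 to 0.05), UPF3B (-0.11 to 0.49), SMG6 (-0.01 to 0.38) and SMG9 (-0.08 to 0.18) in SNGM.

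Replicate numbers did not pair the samples in the same way throughout. Deviations of same-numbered libraries correlated at -0.48 to 0.33 in Ishikawa, -0.02 to 0.09 in Ishikawa-S33Y, -0.57 to 0.70 in SNGM and -0.08 to 0.04 in HEC265. Only in Ishikawa-S33Y and HEC265 did all values lie near 0. In SNGM the value was 0.70 for paclitaxel with vehicle and -0.57 for SM08502 with vehicle. With the replicate block, 21 of 23 counts stayed within 1.5 times, and Ishikawa-S33Y against Ishikawa and the interaction went to 0. Crossed numbers gave 1 for SM08502 and 0 for paclitaxel in Ishikawa, and 0 for SM08502 and 1 for the combination in SNGM.

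Scaling moved the background. Of all genes called with SM08502, 42.8% were higher in Ishikawa, 63.6% in Ishikawa-S33Y and 63.2% in HEC265. With median re-centring these shares were 53.3%, 53.9% and 39.3%, with quantile normalization 52.5% and 47.5% in the latter 2 lines, and with voom 32.7%, 44.5% and 38% of calls. In HEC265 against Ishikawa the median of all genes moved from -0.17 to 0.04 with re-centring and 0.10 with quantile normalization.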
